A study of Mus musculus with 20 samples.

Results

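Collagen, extracellular matrix and fibroblast genes were followed after adenoviral vectors were injected into tumors grown in C57Bl/6 mice from LLC-1, a line of Lewis lung carcinoma. The set was a written list of 51 genes, chosen with earlier results of these data known. Each was read from 1 probe set named with that gene alone, or the probe set with the highest mean over the 20 arrays where a gene had several. Of the 51, 49 were measured among 19938 genes in all, each by 1 probe set. The probe set that holds Loxl2 is also assigned to Gm21451 and none was matched to Fbn1, so both are not analysed here. Every tumor received vector in 25 µl of PBS at a load whose log10 in infectious units was 8, given 5 times at intervals of 48 h. The vectors carried eGFP (the control), IFNbeta (a type I interferon), p19Arf (a mouse tumor suppressor that acts upstream of p53), or p19Arf and IFNbeta together (hereafter the combination); the labels name the groups AdeGFP, AdIFNBeta, p19Arf, and AdIFNBeta and p19Arf. Each group had 5 arrays of total RNA, 1 numbered tumor an array. All 4 groups shared the host strain, the implanted line and injection of an adenovirus, and the eGFP tumors are the only control analysed here. The sources used here do not give the age or sex of the mice, the promoters of the vectors or the share of cells transduced. The labels do not state whether each tumor came from its own mouse, so p-values measure only the spread between these samples, which may be technical.

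Fibrillar collagens are secreted as procollagens, trimmed by proteases, assembled into fibrils and crosslinked by lysyl oxidases, and fibroblasts are their main source in tumors. Small leucine-rich proteoglycans such as decorin and lumican bind the fibrils and regulate their width. Microfibril proteins and fibulins organise elastic fibres, matricellular proteins such as periostin and the tenascins tune cell adhesion, and matrix metalloproteinases cut the matrix under the control of TIMP inhibitors. In bulk tumor RNA, fewer cells of a type and less RNA per cell cannot be told apart.

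Promoter sequence was read for 32 of the 49 measured genes from the RefSeq promoter table (build GRCm38.p6), in a window of 250 bases before the gene start. A gene of the collagen side of the data and a pair of protease genes from the opposite side are shown, as 150 bases ending at the base before the start, 5′ to 3′ on the gene's strand. Capitals mark matches to the motifs searched. Col1a2 lies on the plus strand at chr6:4505468-4505617, Mmp3 on the plus strand at chr9:7445672-7445821 and Mmp13 on the plus strand at chr9:7272364-7272513.
Col1a2: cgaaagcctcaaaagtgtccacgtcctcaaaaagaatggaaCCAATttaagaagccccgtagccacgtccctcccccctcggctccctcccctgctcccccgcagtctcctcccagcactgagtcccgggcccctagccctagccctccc
Mmp3: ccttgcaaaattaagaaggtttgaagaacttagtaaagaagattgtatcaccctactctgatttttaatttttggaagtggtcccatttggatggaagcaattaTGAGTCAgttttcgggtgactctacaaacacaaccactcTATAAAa
Mmp13: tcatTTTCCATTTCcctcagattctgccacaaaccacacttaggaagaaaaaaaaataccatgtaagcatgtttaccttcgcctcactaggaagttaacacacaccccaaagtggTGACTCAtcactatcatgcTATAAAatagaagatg
The motifs were searched on both strands, and a match is a description of the letters only. The Col1a2 window held a CCAAT box (CCAAT) 109 bases before the start. The Mmp3 window held an AP-1 site (TGACTCA, here on the minus strand) 46 bases before the start and a TATA box (TATAAA) 7 bases before it. The Mmp13 window held an AP-1 site at 35 bases, a TATA box at 16 bases and an interferon response element (TTTC, any pair of bases, TTTC) at 146 bases before the start. Over the full windows, CCAAT was found in 12 of 32 genes (37.5%) against 33.8% of all 32851 windows in the table. TATAAA was found in 8 of 32 (25.0%) against 12.4% of all windows, and TGACTCA in 3 of 32 (9.38%; Col6a1, Mmp13 and Mmp3) against 4.46%. The interferon response element was found in 2 of 32 (6.25%; Mfap2 and Mmp13) against 2.98%, and the CArG box in 0 of 32 against 1.47%. No match printed in capitals overlaps another.

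The deposited values were log2 expression values with array medians of 7.49 to 7.61. The arrays differed in the width of their values: the standard deviation over an array, here called the array spread, ran from 1.99 to 2.15. The 5 arrays of lowest spread were IFNbeta replicate 3, p19Arf replicates 2 and 4 and combination replicates 4 and 5. The mean spread was 2.108 with eGFP, 2.113 with IFNbeta, 2.063 with p19Arf and 2.058 with the combination. The spread is thus partly confounded with p19Arf, and it is computed from the same values as the genes. Fits with the spread as a covariate therefore cannot tell a technical part from a part that goes with the vector. Within a group, any pair of arrays correlated at 0.951 to 0.994. IFNbeta replicate 3 stood apart by epidermis markers, whose mean over 8 genes was 9.05, while the other 4 IFNbeta arrays were at 6.49 to 6.69 (log2). Of 8 comparisons fitted with limma over all 19938 genes, none gave a gene at a Benjamini-Hochberg adjusted p under 0.05, the threshold used throughout. Shares of genes past an unadjusted p under 0.05 are given with each comparison. The markers of a carcinoma epithelium (7 genes, Krt8, Krt18 and Epcam among them) averaged 6.89 to 7.37 on the arrays. The table carries no detection call, so whether those genes were above background is not known.

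In tumors given the combination, type I collagen and the microfibril genes were higher in mean than in eGFP tumors, while the proteoglycan genes Lum, Ogn and Dcn and the inhibitor gene Timp2 were lower. None of the 49 members passed the adjusted threshold, against 0.0% of all genes, and the lowest adjusted p among them was 0.234. Of the 49, 34 had a higher mean, against 55.0% of all genes, and the median difference was 0.25 against 0.02 over all genes (log2). At an unadjusted p under 0.05, 21 members were higher, where 6.18% of all genes were, and 5 were lower, where 11.4% of all genes were. The 5 lower ones were Fn1, Dcn, Lum, Ogn and Timp2. They made up 10.2% of the members, so the lower members did not exceed the share of all genes. With every array centred on its median, the counts over all genes were 836 higher and 2877 lower in place of 1233 and 2280, and after quantile normalization 1670 and 1882. The members at that threshold were then 18 higher (4.19% of all genes) and 5 lower (14.4%) after centring, and 22 higher (8.38%) and 3 lower (9.44%) after quantile normalization. Here and below, such counts beside the share of all genes are a description and no test of the set. The list was chosen with earlier results known, and its members are not independent: 100 of 1176 pairs had r over 0.8 across the arrays.

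**Figure D1:**
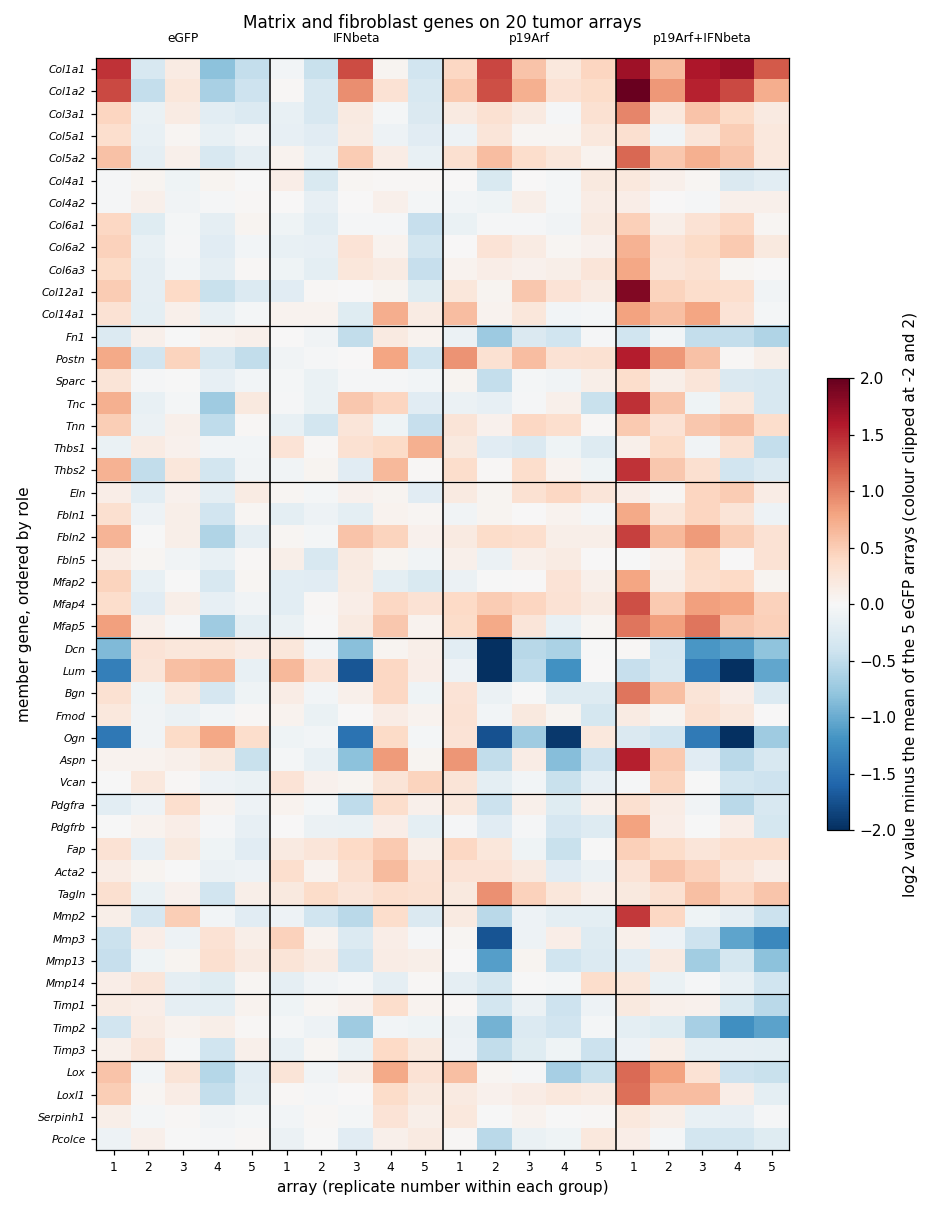
Log2 values of the 49 measured genes (lines, grouped by role) on 20 arrays (columns, grouped by vector), each as the difference from the mean of the 5 eGFP arrays; red is higher and blue lower, with colours clipped at -2 and 2. Col1a1 and Col1a2 are red in all 5 combination tumors, and eGFP replicate 1, IFNbeta replicate 3 and p19Arf replicate 2 show the same pairing of red collagen with blue Dcn, Lum and Ogn.

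Col1a1 and Col1a2, which encode the chains of type I collagen, showed the widest upward differences of the set. Col1a1 was at 12.12, 10.36, 10.85, 9.86 and 10.21 in the 5 eGFP tumors and at 10.62, 10.24, 11.99, 10.74 and 10.30 with IFNbeta (log2 values, replicates 1 to 5). It was at 11.09, 12.01, 11.25, 10.89 and 11.11 with p19Arf and at 12.37, 11.32, 12.30, 12.39 and 11.90 with the combination. In each of the other groups 1 tumor (eGFP replicate 1, IFNbeta replicate 3, p19Arf replicate 2) lay inside the range of the combination, and the remaining 4 lay below all of it. The group means were 12.06 ± 0.46 with the combination and 10.68 ± 0.88 with eGFP (SD, n = 5 each). They differed by 1.38 (SE 0.35), or 2.59-fold, and limma's adjusted p was 0.234. Without eGFP replicate 1 the difference was 1.73 and limma's adjusted p 0.0313. Of the eGFP and combination arrays, this was the only one whose removal let any gene pass in this comparison. Without combination replicate 1 the difference was 1.30 (limma adjusted p 0.167). With the array spread as a covariate it was 0.98 (limma adjusted p 0.681).

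Col1a2 was at 11.27, 9.47, 10.17, 9.29 and 9.53 with eGFP and at 9.97, 9.62, 10.87, 10.23 and 9.63 with IFNbeta. It was at 10.47, 11.23, 10.66, 10.24 and 10.31 with p19Arf and at 11.92, 10.82, 11.48, 11.27 and 10.68 with the combination. The pattern was that of Col1a1: all combination tumors lay above 4 of the 5 eGFP tumors, and eGFP replicate 1 lay among them. The difference from eGFP was 1.29 (SE 0.32), or 2.44-fold, with a limma adjusted p of 0.234, and 1.62 with an adjusted p of 0.0226 without eGFP replicate 1. It was 1.12 (limma adjusted p 0.167) without combination replicate 1 and 1.09 (limma adjusted p 0.66) with the array spread as a covariate. Col5a2, a chain of type V collagen that is built into type I fibrils, was at 8.39, 7.62, 7.91, 7.48 and 7.63 with eGFP and at 7.88, 7.66, 8.31, 7.95 and 7.65 with IFNbeta. It was at 8.12, 8.42, 8.15, 8.04 and 7.87 with p19Arf and at 8.96, 8.35, 8.51, 8.36 and 8.01 with the combination. Here too eGFP replicate 1 was the single eGFP tumor within the combination's range, and the difference was 0.63 (SE 0.17). Col3a1 (type III collagen) and Col5a1 differed from eGFP by 0.46 and 0.24. All 5 fibrillar collagen genes were thus higher in mean in the combination, each at an unadjusted p under 0.05, with a median difference of 0.63.

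Among the other collagen genes of the set, those of types VI, XII and XIV were higher in mean in the combination and those of type IV differed little. Col6a1, Col6a2 and Col6a3, the chains of the beaded-filament type VI collagen, were higher in mean by 0.27, 0.41 and 0.27, and Col6a3 by 0.15 without combination replicate 1. Col14a1, a fibril-associated collagen, was higher in mean by 0.49 (SE 0.18). Col4a1 and Col4a2, which form the network of basement membranes, differed by -0.03 (95% interval -0.25 to 0.20) and 0.06 (-0.10 to 0.22), and Col4a1 was at 0.06 after quantile normalization. Col12a1, which binds the surface of type I fibrils, was at 10.05, 9.37, 9.94, 9.10 and 9.28 with eGFP and at 9.32, 9.57, 9.56, 9.60 and 9.31 with IFNbeta. It was at 9.78, 9.60, 10.08, 9.82 and 9.71 with p19Arf and at 11.40, 10.00, 9.90, 9.88 and 9.47 with the combination. Combination replicate 1 stood above every other array, and the remaining 4 lay within the eGFP range. The mean difference was 0.58 (SE 0.24), and 0.27 without combination replicate 1. Of these 7 genes, 6 were higher in mean and 4 were at an unadjusted p under 0.05.

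Elastic fibre and microfibril genes were higher in mean in the combination in 7 of 7 measured cases, with a median difference of 0.34, and 6 were at an unadjusted p under 0.05. Mfap4, a microfibril-associated glycoprotein of elastic fibres, was at 7.82, 7.25, 7.59, 7.31 and 7.40 with eGFP and at 7.26, 7.49, 7.60, 7.89 and 7.76 with IFNbeta. It was at 7.88, 7.98, 7.91, 7.76 and 7.66 with p19Arf and at 8.77, 7.99, 8.29, 8.26 and 7.93 with the combination. All 5 combination tumors lay above all 5 eGFP tumors, which held for no other member in that direction and for 0.782% of all genes. They also lay above all IFNbeta tumors, while p19Arf replicate 2 (7.98) lay above the lowest of them (7.93). The difference from eGFP was 0.77 (SE 0.14), with limma's adjusted p at 0.234.

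Mfap5, a microfibril protein that also binds fibrillin, was at 9.44, 8.71, 8.60, 7.91 and 8.42 with eGFP and at 8.49, 8.61, 8.79, 9.16 and 8.69 with IFNbeta. It was at 8.99, 9.37, 8.86, 8.46 and 8.66 with p19Arf and at 9.69, 9.44, 9.69, 9.15 and 9.10 with the combination. Of the eGFP tumors only replicate 1 reached the combination's range, as did IFNbeta replicate 4 and p19Arf replicate 2, and the difference was 0.80 (SE 0.21). Fbln2, a fibulin of elastic fibres and basement membranes, was at 9.85, 9.17, 9.29, 8.57 and 9.0 with eGFP and at 9.22, 9.13, 9.74, 9.62 and 9.26 with IFNbeta. It was at 9.36, 9.55, 9.51, 9.30 and 9.29 with p19Arf and at 10.55, 9.83, 10.03, 9.67 and 9.46 with the combination. The eGFP tumors other than replicate 1 lay below all 5 combination tumors, and the difference was 0.73 (SE 0.20). Mfap2, Fbln1 and Eln (elastin) differed by 0.34, 0.31 and 0.25, and Fbln5 by 0.15 (-0.06 to 0.36).

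**Figure D2:**
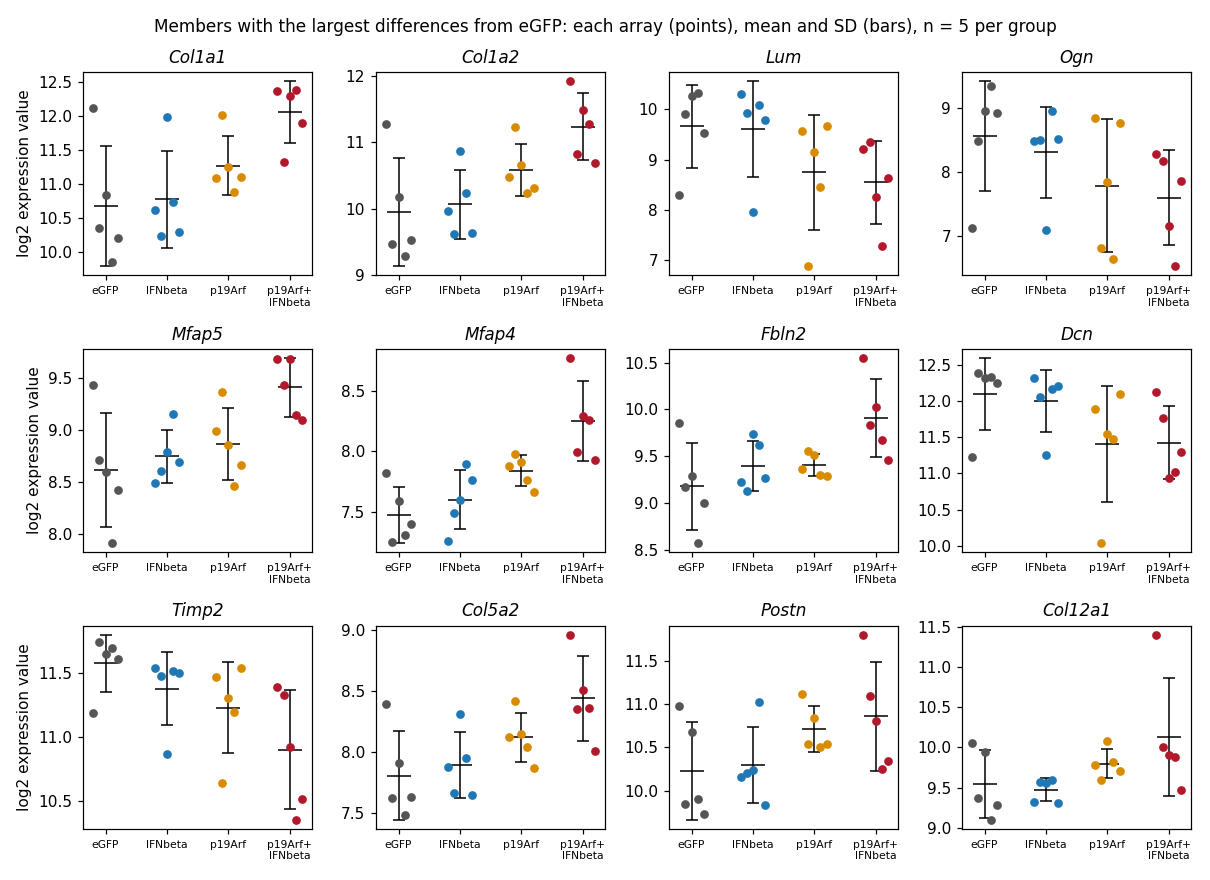
Log2 values of the 12 genes with the largest differences of a vector group from eGFP; each point is 1 array, the bar is the mean and the whiskers the SD (5 arrays a group), with its own vertical range in each panel. The Mfap4 panel alone shows the combination (7.93 to 8.77) clear of eGFP (7.25 to 7.82), and in the panels of Col1a1, Dcn, Lum, Ogn and Timp2 a single eGFP tumor lies away from the other 4.

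Of the 7 adhesive and matricellular genes, 6 were higher in mean in the combination, 2 at an unadjusted p under 0.05 (Postn and Tnn), and Fn1 was lower at that threshold. Postn encodes periostin, a matricellular protein of activated fibroblasts. It was at 10.98, 9.85, 10.68, 9.90 and 9.73 with eGFP and at 10.16, 10.21, 10.24, 11.02 and 9.83 with IFNbeta. It was at 11.12, 10.54, 10.84, 10.51 and 10.54 with p19Arf and at 11.80, 11.09, 10.81, 10.25 and 10.34 with the combination. The eGFP replicates 1 and 3 lay within the combination's range and the other 3 below it, and the mean difference of 0.63 (SE 0.27) was 0.40 without combination replicate 1. Tnn, tenascin N, was higher in mean by 0.46 (SE 0.15), while Fn1, fibronectin, was lower in mean by the difference -0.41 (SE 0.14), from 13.04 ± 0.16 to 12.64 ± 0.21 (SD, n = 5 each), and -0.22 with the array's spread as a covariate. Tnc (tenascin C) and Thbs2 (thrombospondin 2) differed by 0.36 and 0.33, with intervals of -0.18 to 0.91 and -0.22 to 0.88, and by 0.09 and 0.05 without combination replicate 1. Sparc, a collagen-binding glycoprotein, and Thbs1 differed by 0.02 and 0.05.

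The proteoglycan genes divided between Dcn, Lum and Ogn, which were lower in mean in the combination, and Bgn, Fmod, Aspn and Vcan, whose differences of 0.36, 0.15, 0.19 and -0.08 all had 95% intervals spanning 0. Without combination replicate 1, Bgn was at 0.18 and Aspn at -0.15, and after quantile normalization Vcan was at 0.01. Lum encodes lumican, a keratan sulfate proteoglycan of collagen fibrils. It was at 8.30, 9.91, 10.27, 10.32 and 9.52 with eGFP and at 10.31, 9.93, 7.95, 10.08 and 9.79 with IFNbeta. It was at 9.56, 6.88, 9.16, 8.46 and 9.67 with p19Arf and at 9.21, 9.35, 8.26, 7.29 and 8.63 with the combination. The 4 eGFP tumors other than replicate 1 lay above all combination tumors, IFNbeta replicate 3 lay within the combination's range, and p19Arf replicate 2 lay below it. The difference from eGFP was -1.12 (SE 0.51).

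Ogn, osteoglycin (mimecan), was at 7.13, 8.49, 8.95, 9.34 and 8.92 with eGFP and at 8.48, 8.51, 7.09, 8.95 and 8.52 with IFNbeta. It was at 8.84, 6.82, 7.85, 6.64 and 8.77 with p19Arf and at 8.28, 8.18, 7.15, 6.53 and 7.86 with the combination. The eGFP tumors other than replicate 1 again lay above all 5 of the combination, and the difference was -0.97 (SE 0.46). Dcn, decorin, was at 11.22, 12.38, 12.32, 12.33 and 12.25 with eGFP and at 12.32, 12.05, 11.26, 12.16 and 12.21 with IFNbeta. It was at 11.89, 10.04, 11.54, 11.47 and 12.09 with p19Arf and at 12.12, 11.76, 10.93, 11.02 and 11.30 with the combination. The tumors lay as for Ogn, and the difference was -0.67 (SE 0.32). These 3 genes moved with the array spread (r = 0.83 for their mean over 20 arrays), and with the spread as a covariate the differences from eGFP were -0.31 for Lum, -0.20 for Ogn and -0.26 for Dcn. In that fit Col1a1 differed by 0.98, Col1a2 by 1.09 and Mfap4 by 0.79.

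Among the fibroblast and mural cell markers, the contractile genes Acta2 (smooth muscle actin) and Tagln (transgelin) and the fibroblast protease Fap were higher in mean in the combination by 0.33 (SE 0.12), 0.41 (SE 0.14) and 0.35 (SE 0.13). The growth factor receptors Pdgfra and Pdgfrb, which mark fibroblasts and pericytes, differed by -0.10 (-0.44 to 0.25) and 0.14 (-0.15 to 0.43). Pdgfrb was at -0.02 without combination replicate 1, and Pdgfra at 0.18 with the spread as a covariate and at 0.13 without the 5 arrays of lowest spread. The mean of the 5 markers ran from 8.37 to 8.71 over the combination tumors and from 8.20 to 8.45 over the eGFP tumors, so the groups overlapped.

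Of the matrix proteases, the stromelysin gene Mmp3 and the collagenase gene Mmp13 were lower in mean by the differences -0.55 (SE 0.29) and -0.39 (SE 0.20), with intervals of -1.15 to 0.05 and -0.81 to 0.04. With the spread as a covariate they were at -0.23 and -0.12, and without the 5 arrays of lowest spread at -0.14 and -0.25. The gelatinase gene Mmp2 and the membrane-bound protease gene Mmp14 differed by 0.22 and -0.09; Mmp2 was at -0.07 without combination replicate 1 and Mmp14 at 0.09 after quantile normalization. Timp2, an inhibitor that also helps Mmp14 to activate pro-Mmp2, was at 11.19, 11.75, 11.65, 11.70 and 11.61 with eGFP and at 11.54, 11.48, 10.87, 11.52 and 11.50 with IFNbeta. It was at 11.47, 10.64, 11.31, 11.20 and 11.54 with p19Arf and at 11.39, 11.33, 10.92, 10.35 and 10.51 with the combination. The eGFP tumors other than replicate 1 lay above all combination tumors. The difference was -0.68 (SE 0.20), and it was -0.36 once the array spread entered as a covariate. Timp1 and Timp3 differed by -0.09 and -0.11, and Timp1 by 0.04 after quantile normalization.

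Of the 4 collagen-processing genes, Loxl1 alone was at an unadjusted p under 0.05 in the combination against eGFP. Loxl1, a lysyl oxidase of elastic fibres, was higher in mean by 0.46 (SE 0.18), and Lox by 0.27 (SE 0.28); without combination replicate 1 they were at 0.29 and 0.06. The collagen chaperone Serpinh1 differed by -0.002 (-0.19 to 0.18) and Pcolce, an enhancer of procollagen cleavage, by -0.17 (-0.43 to 0.08), and Serpinh1 was at 0.13 after quantile normalization.

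**Figure D3:**
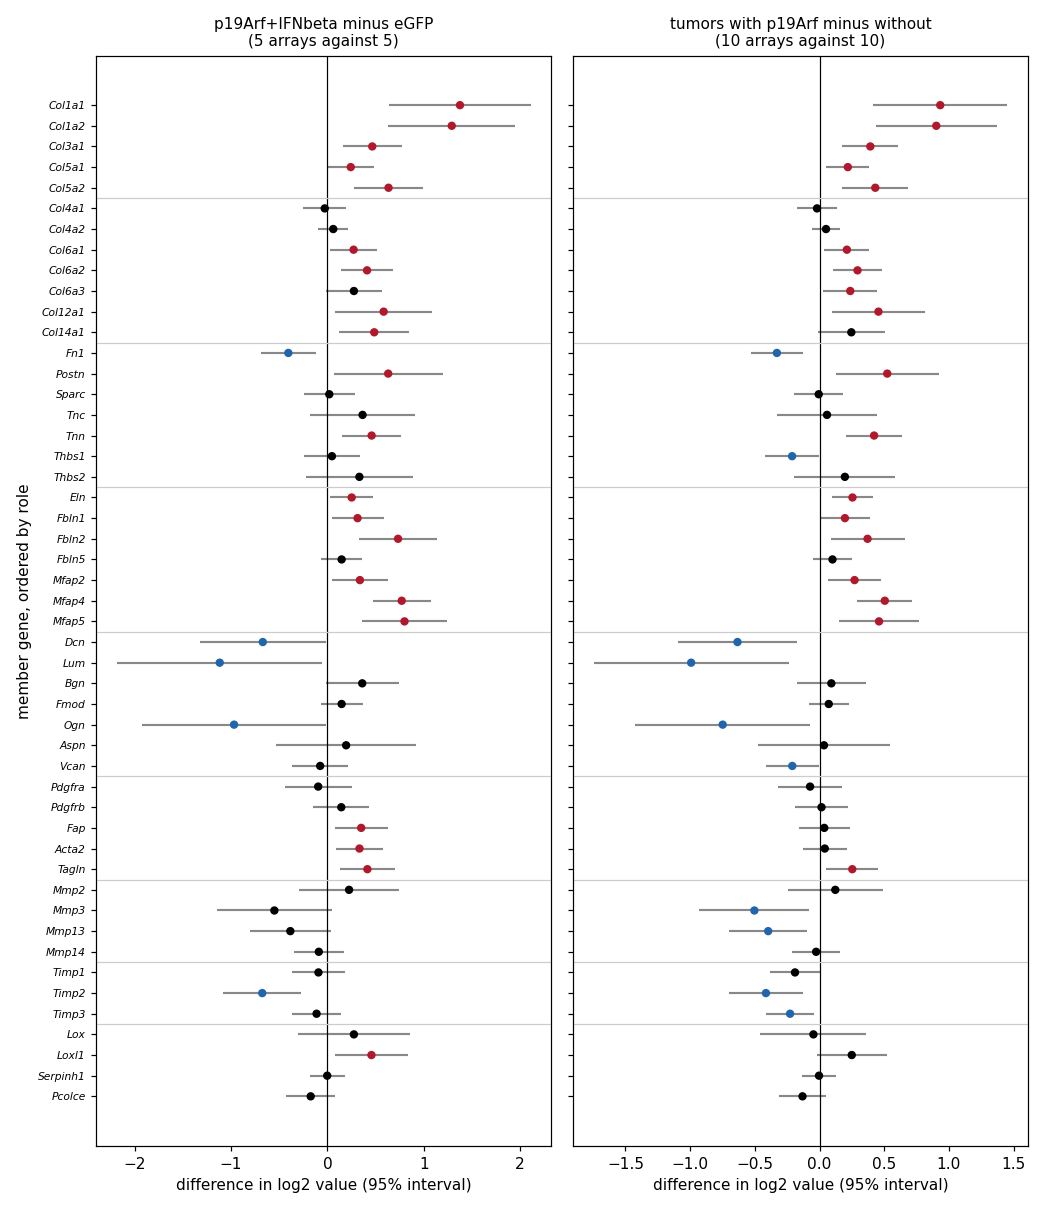
Differences in log2 value (points) with unadjusted 95% intervals (lines) for the 49 genes, for the combination minus eGFP (left) and for all tumors with p19Arf minus all without (right); red and blue mark intervals that lie above or below 0. On the left 21 intervals lie above 0 and 5 below, on the right 18 above and 10 below, and none of these genes passed the adjusted threshold.

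Each vector given alone was compared with the same eGFP tumors as the combination, so the 3 comparisons share their controls. With IFNbeta alone, 4 members were higher at an unadjusted p under 0.05 (1.34% of all genes) and 0 were lower (1.45% of all genes), and the lowest adjusted p among the members was 1.0. Of the 49, 24 had a higher mean (44.2% of all genes), and no member had IFNbeta tumors all above (0.552% of all genes) or all below (0.346%) the eGFP tumors. The 4 higher at the unadjusted threshold were Thbs1 at 0.34 (SE 0.14), Acta2 at 0.33 (SE 0.12), Fap at 0.29 (SE 0.13) and Tagln at 0.29 (SE 0.14). They became 2 without eGFP replicate 2 or 4, or without IFNbeta replicate 3, 4 or 5 (0.838% to 1.55% of all genes). Acta2 ran from 9.67 to 10.23 in IFNbeta tumors and from 9.49 to 9.76 in eGFP tumors, so the groups overlapped. Fap averaged 6.50 over the 20 arrays, at percentile 23.0 of all genes, and whether it was above background is not known. Of 10 skeletal muscle markers, 7 were higher at the unadjusted threshold in this comparison. IFNbeta replicate 4 held both the highest Acta2 and the highest mean of these markers (9.445), and their part in the Acta2 and Tagln differences was not tested. The type I collagen genes differed by 0.10 (Col1a1, interval -0.63 to 0.83) and 0.12 (Col1a2, -0.54 to 0.78), and Lum by -0.05 (-1.12 to 1.01).

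With p19Arf alone, 3 members were higher at an unadjusted p under 0.05 (2.84% of all genes) and 3 were lower (4.4% of all genes), with a lowest adjusted p of 0.661. Of the 49, 26 had a higher mean (54.4% of all genes), and no member had p19Arf tumors all above (0.251% of all genes) or all below (0.441%) the eGFP tumors. The higher ones were Tagln at 0.38 (SE 0.14), Mfap4 at 0.36 (SE 0.14) and Eln at 0.24 (SE 0.11). These 3 became 11 without eGFP replicate 1 (4.04% of all genes) and 1 without eGFP replicate 2 (1.64%) or 4 (1.52%). The lower ones were Dcn at -0.69 (SE 0.32), Fn1 at -0.31 (SE 0.14) and Timp3 at -0.27 (SE 0.12). No member was lower at that threshold without p19Arf replicate 2 (3.32% of all genes), eGFP replicate 2 (1.71%) or eGFP replicate 5 (2.98%), or with the spread as a covariate (1.95%). Col1a1 and Col1a2 differed from eGFP by 0.59 (SE 0.35) and 0.64 (SE 0.32), and Lum and Ogn by -0.92 (SE 0.51) and -0.78 (SE 0.46). p19Arf replicate 2 held the highest Col1a1 and Col1a2 and the lowest Dcn and Lum of its group, and without it Dcn was at -0.35, Lum at -0.45 and Col1a1 at 0.40.

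Set against IFNbeta alone, the combination had 17 members higher at an unadjusted p under 0.05 (11.8% of all genes) and 5 lower (14.0% of all genes), and the lowest adjusted p was 0.15. Of the 49, 33 had a higher mean (57.1% of all genes). Col3a1, Col6a1, Tnn and Mfap4 were higher in every combination tumor than in any IFNbeta tumor, where 1.3% of all genes were. Col3a1 was at 10.70, 10.52, 11.02, 10.80 and 10.56 with IFNbeta and at 11.83, 11.05, 11.42, 11.23 and 11.02 with the combination, a difference of 0.59 (SE 0.15). Col6a1 was at 8.97, 8.85, 9.03, 9.03 and 8.60 and at 9.54, 9.18, 9.35, 9.47 and 9.10, a difference of 0.43 (SE 0.12). These genes encode a fibrillar collagen and a type VI collagen chain. Tnn was at 7.16, 6.95, 7.55, 7.23 and 6.85 and at 7.83, 7.60, 7.85, 7.91 and 7.67, a difference of 0.62 (SE 0.15). For Col3a1 the highest IFNbeta tumor and the lowest combination tumor were both at 11.02 after rounding, so that separation was small.

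Without IFNbeta replicate 3, 13 members passed the adjusted threshold in that comparison, among 2351 genes of 19938 (11.8%). Those 13 were Col1a1, Col1a2, Col3a1, Col5a1, Col5a2, Col6a1, Col6a2, Tnn, Mfap2 and Mfap4, which were higher in mean in the combination, and Fn1, Lum and Timp2, which were lower. Set against p19Arf alone, the combination had 12 members higher at an unadjusted p under 0.05 (1.83% of all genes) and 0 lower (1.24% of all genes), with a lowest adjusted p of 0.998. Of the 49, 39 had a higher mean (46.9% of all genes), and none had all combination tumors above (0.16% of all genes) or below (0.0953%) the p19Arf tumors. The 12 higher members became 4 without combination replicate 1, 5 without p19Arf replicate 4, 7 without p19Arf replicate 5 and 20 without combination replicate 5, where 1.81%, 1.64%, 1.20% and 2.17% of all genes were higher. Col1a1 differed there by 0.79 (SE 0.35), Mfap5 by 0.55 (SE 0.21), Fbln2 by 0.51 (SE 0.20) and Bgn (biglycan) by 0.43 (SE 0.18), while Dcn and Lum differed by 0.02 (-0.63 to 0.68) and -0.20 (-1.26 to 0.87).

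Pooling the 10 tumors with p19Arf against the 10 without gave 18 members higher at an unadjusted p under 0.05 (14.8% of all genes) and 10 lower (18.0% of all genes). Of the 49, 31 had a higher mean (57.8% of all genes), and none had all 10 tumors with p19Arf above all 10 without (0.00502% of all genes). The lowest adjusted p was 0.061, shared by Col1a1, Col1a2, Col3a1, Col5a2, Tnn and Mfap4. Their differences were 0.93 (SE 0.25), 0.90 (SE 0.22), 0.39 (SE 0.11), 0.43 (SE 0.12), 0.42 (SE 0.10) and 0.50 (SE 0.10). The 10 lower members were Lum at -0.99, Ogn at -0.75, Dcn at -0.63, Mmp3 at -0.50, Timp2 at -0.41, Mmp13 at -0.40, Fn1 at -0.33, Timp3 at -0.23, Thbs1 at -0.21 and Vcan at -0.21. When only the 9969 genes above the median level were tested, 32.5% were lower at an unadjusted p under 0.05 and 8.05% higher. Of the 41 members in that fit, 10 were lower and 14 higher, so the lower members did not exceed the share of such genes.

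With the array spread as a covariate, 16 members were higher at an unadjusted p under 0.05 (2.77% of all genes in that fit) and 0 were lower (2.64%), and Ogn was at 0.02 and Lum at -0.18. The number of members past the adjusted threshold in this comparison moved with single tumors: it was 22 without eGFP replicate 1 (14.8% of all genes passed), 19 without IFNbeta replicate 3 (19.5%), 15 without combination replicate 2 (15.5%), 12 without p19Arf replicate 1 (14.0%) and 7 without combination replicate 1 (6.22%). It was 0 without any of the other arrays in turn.

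Pooling the 10 tumors with IFNbeta against the 10 without gave 7 members higher at an unadjusted p under 0.05 (2.77% of all genes) and 0 lower (2.15% of all genes), with a lowest adjusted p of 0.75. Of the 49, 38 had a higher mean (41.5% of all genes). The 7 became 15 without eGFP replicate 1 (3.39% of all genes) and 13 without combination replicate 5 (3.01%). Fbln2 was at 0.36 (SE 0.14), Mfap5 at 0.34 (SE 0.15), Fap at 0.31 (SE 0.09) and Acta2 at 0.29 (SE 0.08). The interaction, which asks whether adding p19Arf differed between tumors with and without IFNbeta, was higher at an unadjusted p under 0.05 for 3 members (0.813% of all genes), Col6a1, Fbln1 and Mfap2, and lower for 0 (0.492% of all genes). Leaving out single arrays gave 1 to 7 higher members, the 7 without IFNbeta replicate 3 (1.41% of all genes) or combination replicate 5 (0.808%). The interaction was above 0 for 37 of the 49 (52.2% of all genes), and all members had an adjusted p of 1.0 in limma. For Col1a1 the interaction was 0.69 (SE 0.50) and for Lum -0.14 (SE 0.73).

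Across the 20 arrays the members formed opposed sets, described here by Pearson correlations that share the arrays and their normalization. Of 1176 pairs of members, 100 had r over 0.8 and 70 had r under -0.5, with a median of 0.323. The tightest pair was Col1a2 with Col5a2 (r = 0.977, and 0.958 for deviations from the group means). Col6a2, Col3a1, Fbln2, Mfap5, Mfap4 and Tnn followed the mean of Col1a1, Col1a2 and Col3a1 with r of 0.952, 0.938, 0.887, 0.849, 0.84 and 0.857; Col3a1 is part of that mean. On the other side Dcn, Lum, Ogn, Fn1, Timp2, Mmp13 and Mmp3 moved together: against the mean of Dcn, Lum and Ogn, r was 0.891 for Fn1, 0.886 for Timp2, 0.833 for Mmp13 and 0.765 for Mmp3. The most negative pair was Col1a1 with Fn1 (r = -0.828, and -0.743 for deviations). The mean of Col1a1, Col1a2 and Col3a1 and the mean of Dcn, Lum and Ogn had r = -0.706, and -0.616 for deviations. Outside the combination, the array with the highest collagen mean of its group also had the lowest mean of Dcn, Lum and Ogn. These were eGFP replicate 1 (11.56 and 8.88), IFNbeta replicate 3 (11.29 and 8.77) and p19Arf replicate 2 (11.47 and 7.91). In the combination, replicate 1 had the highest of both means (12.04 and 9.87). How far the r for deviations rests on those single arrays was not tested.

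The spread of the array ran along the same axis, more for the proteoglycans than for the collagens. The mean of Dcn, Lum and Ogn had r = 0.828 with it (0.771 for deviations) and the collagen mean r = -0.571 (-0.383). Over all genes the median r with the spread was -0.232, and over the members 0.133. Combination replicate 1 joined the highest collagen mean (12.04) with a spread of 2.11 and a mean of 9.87 for Dcn, Lum and Ogn. With the spread as a covariate, limma's adjusted p for Col1a1 in the combination against eGFP was 0.681. Macrophage markers followed the proteoglycans (8 genes, r = 0.876 with the mean of Dcn, Lum and Ogn, and 0.826 with the spread). They were not alone in this. The same r were 0.823 and 0.89 for TGF-beta pathway genes, 0.821 and 0.801 for matrix receptor genes and 0.713 and 0.827 for collagen synthesis enzymes. The mean of the macrophage markers ran from 10.63 to 11.47 over the combination tumors and from 11.10 to 11.57 over the eGFP tumors. The part of these markers in the proteoglycan differences was not tested.

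**Figure D4:**
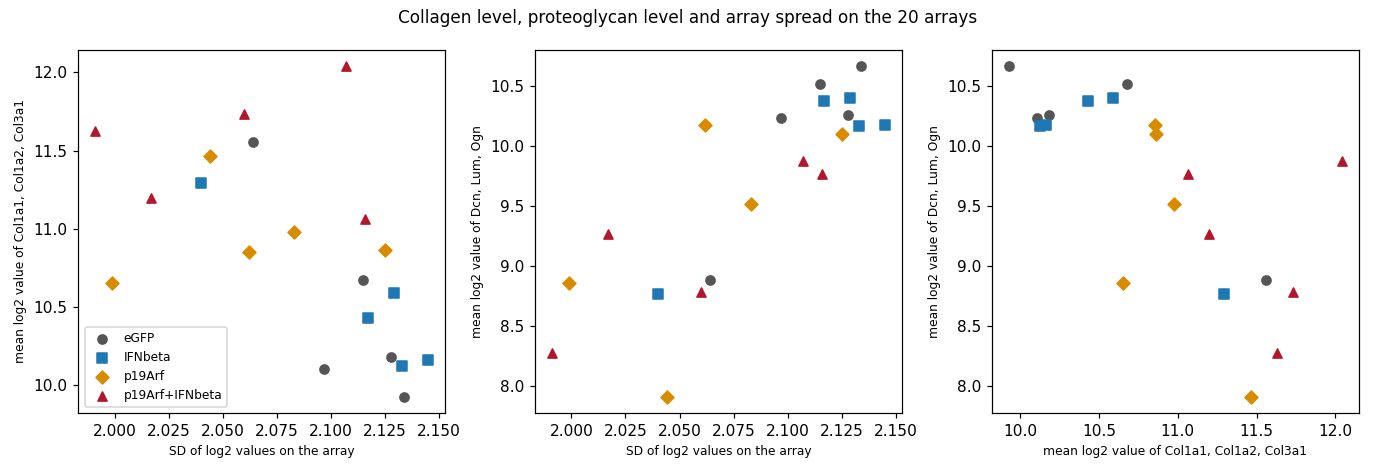
Each point is 1 of the 20 arrays, with the vector shown by colour and shape: mean log2 value of Col1a1, Col1a2 and Col3a1 (left) and of Dcn, Lum and Ogn (middle) against the SD of the log2 values on the array, and the second mean against the first (right). The proteoglycan mean follows the spread (r = 0.828), and eGFP replicate 1 and IFNbeta replicate 3 lie with the combination tumors, apart from the other 4 of their groups.

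Genes around the matrix pathway were read from lists that hold none of the 49 members, and none passed the adjusted threshold in any of these comparisons. In the combination against eGFP, 6.18% of all genes were higher and 11.4% lower at an unadjusted p under 0.05. Among the 9969 genes above the median level these shares were 6.97% and 20.5%. The counts in the lists below stand beside those shares, and no list was tested as a set. Of 14 other collagen genes, 11 were higher in mean in the combination than in eGFP, 3 of them at an unadjusted p under 0.05 and 1 gene lower at that threshold; Col5a3 differed by 0.36 and Col8a1 by -0.29. Of 17 genes for collagen synthesis enzymes, 8 were higher in mean and 9 lower (1 and 4 at that threshold), with Ppib, a prolyl isomerase of the endoplasmic reticulum, at -0.50 and P4ha3, a prolyl hydroxylase subunit, at 0.39. Of 18 genes of the TGF-beta pathway, the main inducer of collagen synthesis, 13 were lower in mean (4 at that threshold) and 5 higher (1 at that threshold). Tgfb3, a ligand, was at -0.56 and Ltbp2, a latent TGF-beta binding protein family member of microfibrils, at 0.53. The pathway's mean level had r = 0.89 with the array spread.

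Of 14 matrix receptor genes, 10 were lower in mean (6 at that threshold, where 11.4% of all genes were) and 4 higher (1, against 6.18%). The syndecan gene Sdc1 was at -0.48 and the collagen-binding integrin gene Itga11 at 0.43. Of 10 basement membrane genes, 6 were lower (3) and 4 higher (1), with nidogen gene Nid1 at -0.41 and laminin gene Lamb2 at 0.28. Of 18 other matrix proteases, 10 were lower (5) and 8 higher (6), with the gelatinase gene Mmp9 at -1.12 and the collagen-cutting cathepsin gene Ctsk at -0.73.

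Markers of the cell types that a tumor sample can hold were read in the same way, beside the same shares of all genes (6.18% higher and 11.4% lower). Of 14 fibroblast markers outside the set, 6 were higher in mean in the combination than in eGFP (3 at an unadjusted p under 0.05) and 8 lower (3), with Dpt, dermatopontin, at -0.88 and Pdpn, podoplanin, at 0.62. Their mean level ran from 9.05 to 9.61 over the combination tumors and from 9.27 to 9.39 over the eGFP tumors. Skeletal muscle markers were higher in mean in 10 of 10 cases, 8 at that threshold, with a median difference of 0.91 (Myh4 at 1.31 and Atp2a1 at 1.23), and their mean ran from 7.40 to 9.04 against 7.28 to 8.00 in eGFP tumors. They were also higher in mean in 10 of 10 cases with IFNbeta alone (median 0.86) and with p19Arf alone (median 0.55). Across arrays their mean had r = 0.181 with the collagen mean and -0.009 for deviations from the group means; their part in the collagen differences was not tested otherwise. Of 8 macrophage markers 7 were lower in mean, 3 at that threshold, with Mrc1, the mannose receptor, at -0.52 and Cd68 at -0.45. Endothelial markers (5 of 8 higher in mean), markers of pericytes and smooth muscle (4 of 9), adipocytes (2 of 7), epidermis (1 of 8), carcinoma epithelium (4 of 7) and cartilage and bone (7 of 7) had medians of 0.09, -0.06, -0.01, -0.11, 0.08 and 0.10. The genes with the largest differences in these lists were Cdh5 (-0.44) and Emcn (-0.29) for endothelium, Des (0.58) and Rgs5 (-0.24) for pericytes and smooth muscle, and Fabp4 (0.21) and Plin1 (0.18) for adipocytes. They were Krt5 (-0.59) and Krt14 (-0.28) for epidermis, Krt19 (0.21) and Krt18 (0.21) for carcinoma epithelium, and Matn1 (0.15) and Comp (0.15) for cartilage and bone.

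The 10 genes outside the set whose values were most like the mean of Col1a1, Col1a2 and Col3a1 over the 20 arrays had r of 0.901 to 0.959. They were Mmp23 (0.959, a membrane-bound matrix metalloproteinase), Fam53b (0.932), Bnc2 (0.927, a zinc finger protein), Gpr153 (0.919), Cacna1c (0.916, a calcium channel subunit), Meg3 (0.909, a long noncoding RNA), Ltbp2 (0.905), Sned1 (0.905), Rasal3 (0.904) and Rinl (0.901). For deviations from the group means their r ran from 0.815 to 0.925.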

How the data were processed

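The authors deposited log2 expression values for 35556 probe sets on 20 Affymetrix arrays; Affymetrix Expression Console and GCOS are named per the submitters' processing notes, without a version. Per the labels' protocols, Trizol RNA was made into biotin cRNA. The sources used here do not give how probe sets were summarised or normalized. The log base was read from the range of the deposited values (2.33 to 14.7). The platform annotation gave 1 symbol to 21789 probe sets, several to 1621 and none to 12146. Taking 1 probe set a gene, by the highest mean, left 19938 genes.

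Groups came from the labels. One model over all 20 arrays was fitted with limma 3.58.1 in R 4.3.3 (16 residual degrees of freedom), with 8 contrasts, 2-sided tests and Benjamini-Hochberg adjustment over 19938 genes at 0.05, and was tested on simulated data. Intervals are limma's, at 95%, unadjusted. No filter on low values was used, so all 49 measured genes were tested. Values on every array are given for the 12 genes with the largest difference of a vector group from eGFP; of other lists, the 2 genes with the largest difference are named. Genes shown for a contrast beyond these were chosen after their values were seen. The members and lists were chosen with earlier results of these data known. Replicate numbers did not pair the arrays. Alternatives were quantile normalization, median centring, array weights, trended and robust moderation, the array spread as a covariate, the mean of a gene's probe sets, genes above the median level, the groups compared only, a replicate block, dropping each array in turn, and dropping the 5 arrays with the lowest spread; the last was chosen after seeing the data. The number of arrays limits the precision.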

Additional observations from a re-analysis of the deposited data

Results flagged for a closer look

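In 196 groups of 5 arrays (49 genes in 4 groups), 15 held an array whose gap to the nearest other array, divided by the group's range, was above Dixon's 95% critical value of 0.71. That is 7.65%, where chance would give about 5% if the groups were independent. The genes share the same arrays and many move together, so the difference between these shares is no test of an excess. In IFNbeta replicate 3, Col1a1 was at 11.99 (others 10.24 to 10.74) and Mfap2 at 8.07 (7.60 to 7.72), while Dcn was at 11.26 (12.05 to 12.32), Lum at 7.95 (9.79 to 10.31), Ogn at 7.09 (8.48 to 8.95), Mmp13 at 10.99 (11.48 to 11.63) and Timp2 at 10.87 (11.48 to 11.54). In eGFP replicate 1, Fn1 was at 12.77 (13.04 to 13.15), Dcn at 11.22 (12.25 to 12.38) and Timp2 at 11.19 (11.61 to 11.75). In IFNbeta replicate 2, Col4a1 was at 9.18 (9.51 to 9.62) and Sparc at 12.73 (12.82 to 12.85). Col12a1 was at 11.4 in combination replicate 1 (9.47 to 10.0), Aspn at 6.64 in eGFP replicate 5 (7.16 to 7.28) and Mmp3 at 9.70 in p19Arf replicate 2 (11.17 to 11.57).

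Adding IFNbeta went with a difference in Col6a1 of -0.16 without p19Arf and 0.28 with p19Arf. The interaction was 0.44, with an unadjusted p of 0.015 and an adjusted p of 1.0 in limma.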

How the results depend on the processing

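With 5 arrays a group and no detection calls, small differences and genes near background are not resolved. Of the values, under the alternatives, of the 12 genes shown by array and of members at an unadjusted p under 0.05, 2590 kept their direction and side of the threshold, 147 passed it and 3 reversed, all with the array spread as a covariate: Ogn in the combination against IFNbeta (0.13) and Ogn (0.021) and Vcan (0.002) with against without p19Arf. None had passed in the reported fit, so none could fall back across the threshold. A value that only shrank counted as kept, such as Lum in the combination against eGFP (-1.12, and -0.31 with the covariate). These genes were picked by their differences or p-values in the same data, so few reversals were likely from the outset. Over all 49 members in the combination against eGFP, 38 kept their sign under each of the 20 alternatives that included them. The other 11 did not: Col4a1, Sparc, Thbs1, Aspn, Vcan, Pdgfra, Pdgfrb, Mmp2, Mmp14, Timp1 and Serpinh1. Several alternatives could not turn a sign, because they leave a member's difference in this comparison as it was. These were trended and robust moderation, the mean of a gene's probe sets, the replicate block, the groups compared only and the genes above the median level. The last of these held only 41 of the members. With array weights, the genes past the threshold were 5 (0.0251%) for IFNbeta against eGFP and 166 (0.833%, 7 members) for the combination against eGFP. They were 1730 (8.68%, 14 members) for the combination against IFNbeta, 5197 (26.1%, 25 members) with p19Arf and 12 (0.0602%) with IFNbeta. Without the 5 arrays of lowest spread they were 1 for IFNbeta and 3 for the combination against eGFP. Testing only the 9969 genes above the median level, 41 members among them, they were 945 (9.48%, 7 members) with p19Arf. That fit gave 1 for the combination against IFNbeta, where median centring also gave 1. Members lower at an unadjusted p under 0.05 in the combination against eGFP were 3 after quantile normalization (9.44% of all genes), 2 with trended and robust moderation (11.2%), 1 with the spread as covariate (2.65%), 3 among genes above the median level (20.5%) and 2 without the low-spread arrays (4.48%). Against IFNbeta they were 2 after quantile normalization (10.0%) and 0 with the covariate (2.56%), and with p19Arf 0 with the covariate (2.64%) and 5 without the low-spread arrays (11.7%). The cause was not tested.

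Leaving out each array in turn, genes past the threshold ranged from 0 to 84 (members 0 to 7) for the combination against eGFP, from 0 to 2351 (members 0 to 13) against IFNbeta and from 0 to 3892 (members 0 to 22) with p19Arf, and were 0 in the other 5 comparisons. Members with a higher mean ranged from 30 to 38, 28 to 36 and 27 to 35, those higher at an unadjusted p under 0.05 from 13 to 24, 13 to 22 and 16 to 20, and those lower from 2 to 7, 0 to 8 and 7 to 11. Over all genes, the shares higher at that threshold ranged from 3.45% to 9.09%, 5.64% to 16.1% and 9.81% to 19.6%. The shares lower ranged from 5.0% to 15.9%, 6.79% to 20.2% and 14.0% to 21.6%. In the comparisons of p19Arf with eGFP, IFNbeta with eGFP, the combination with p19Arf, with against without IFNbeta and the interaction, members higher at that threshold ranged from 1 to 11, 2 to 4, 4 to 20, 5 to 15 and 1 to 7, and members lower from 0 to 6, 0 to 1, 0 to 2, 0 to 1 and 0 to 0. Over all genes in these comparisons, the shares higher ranged from 1.52% to 5.77%, 0.838% to 1.77%, 1.2% to 6.03%, 1.9% to 6.22% and 0.456% to 2.28%. The shares lower ranged from 1.71% to 9.41%, 0.466% to 2.75%, 0.943% to 3.61%, 1.27% to 4.74% and 0.336% to 1.31%. For the combination against eGFP, against IFNbeta and with p19Arf, the median member difference ranged from 0.14 to 0.33, 0.06 to 0.30 and 0.04 to 0.12. It ranged from -0.04 to 0.05 for IFNbeta against eGFP, -0.02 to 0.09 for p19Arf against eGFP, 0.11 to 0.28 for the combination against p19Arf, 0.03 to 0.15 with IFNbeta and 0.06 to 0.24 for the interaction.

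Same-numbered arrays of different groups did not deviate together: 11 of 30 pairs had r over 0.1, from -0.624 to 0.657, and 3 of 20 arrays correlated best with their own number. With the replicate number as a block, 0 genes passed in any comparison, and the lower members were 2 against eGFP (9.65% of all genes) and 3 against IFNbeta (12.3%).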
